A study of Mus musculus with 4 samples.

Results

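The spermatogonial niche growth factors described here are 10 ligands that somatic cells of the testis make and that act on spermatogonia, the dividing germ cells that precede meiosis. They are *Gdnf*, *Kitl*, *Cxcl12*, *Fgf2*, *Bmp4*, *Csf1*, *Wnt5a*, *Nrg1*, *Igf1* and *Lif*. Members were chosen by gene name, and all 10 were found among the 55820 loci of the deposited table, each as a single row. RNA sequencing covered whole testes of C57BL/6J males at postnatal day 10 (P10), with 2 control libraries and 2 Mps1sKO libraries. In Mps1sKO mice, *Stra8*-Cre deletes the floxed *Mps1* gene (listed as *Ttk*) in germ cells, from early spermatogonia onwards, so the somatic cells that make these ligands carry no deletion by design. Which floxed or Cre alleles the control mice carried, and whether a library came from 1 mouse, is not given in the labels or the methods. P-values therefore measure the spread between these libraries, which may be technical.

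Spermatogonia sit on the basement membrane of the seminiferous tubule, enclosed by Sertoli cells, and beyond it lie peritubular myoid cells, Leydig cells, macrophages and vessels. GDNF from Sertoli and peritubular cells signals through GFRA1 and RET and maintains stem cells, and FGF2, CXCL12, CSF1, WNT5A, IGF1 and LIF are known to favour their survival or self-renewal. KITL, also called stem cell factor, acts through KIT on differentiating spermatogonia, and BMP4 and NRG1 are known to promote differentiation and entry into meiosis.

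The libraries held 23311689 to 28607746 counts. *Ttk* itself measured 27.9 and 32.6 CPM (counts relative to library size, scaled by edgeR's TMM method) in controls, and 13.0 and 12.2 in Mps1sKO testes. The log2 fold change of *Ttk* was −1.26, with a Benjamini-Hochberg adjusted p of 0.0461 in the quasi-likelihood test of edgeR. In bulk RNA, fewer cells of a type and less RNA per cell cannot be told apart. All fold changes are Mps1sKO relative to control, CPM is used to compare libraries for a single gene, and FPKM, which also divides by gene length, is used to compare genes.

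All 10 ligands were detected in every library, and their levels spanned a 138-fold range from *Kitl* to *Nrg1* in mean FPKM. *Kitl* stood highest, with FPKM values of 54.3 and 44.6 in control and 64.9 and 66.8 in Mps1sKO testes. *Igf1* followed with 14.4 to 19.5 FPKM, *Cxcl12* with 12.4 to 15.8, and *Wnt5a* with 8.91 to 11.9. *Igf1* exceeded *Cxcl12* in each of the 4 libraries, although the ranges over all libraries overlapped. A middle group was formed by *Gdnf* (3.67 to 7.39 FPKM), *Csf1* (4.51 to 5.51), *Bmp4* (3.63 to 4.62) and *Fgf2* (3.64 to 4.24), in which neighbouring genes overlapped across the libraries. *Lif*, with 0.677 to 0.869 FPKM, and *Nrg1*, with 0.349 to 0.547, lay well below them and did not overlap each other.

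**Figure D1:**
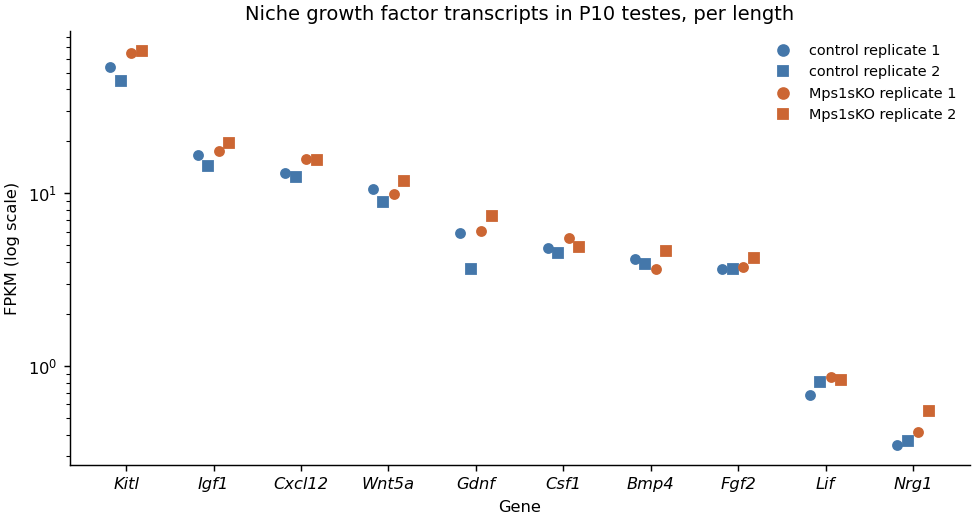
FPKM of each ligand (log axis) in the 4 libraries, with genes ordered by their mean over all libraries. Control libraries are blue, Mps1sKO libraries orange. *Kitl* lies between 44.6 and 66.8 FPKM and *Nrg1* between 0.349 and 0.547.

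The comparison of the genotypes asks whether loss of *Mps1* in germ cells goes with different ligand levels in the surrounding testis. Each of the 10 ligands had a log2 fold change above 0, from 0.02 for *Bmp4* to 0.48 for *Gdnf*, with a median of 0.21 against 0.00027 over all 20561 tested loci. None passed an adjusted p of 0.05 with edgeR, a call made for 0.0292% of tested loci, and 2 had an unadjusted p below 0.05, against 9.3% of tested loci. DESeq2, which called 0.241% of the 15382 loci it gave an adjusted p, and limma-voom also gave 0 ligands at this threshold. Relaxed cut-offs, 1.2-fold with 0.05 for the unadjusted p, were read beside it. By these *Kitl* and *Cxcl12* were higher and 0 ligands were lower, where 3.09% of tested loci were higher and 4.95% were lower. DESeq2 added *Gdnf* to these, for 3 ligands higher and 0 lower, where 1.35% of the 35262 loci with an unadjusted p from DESeq2 were higher and 1.65% lower. That larger set holds loci of low count, so these shares are not comparable with those of edgeR. For 8 of the 10, both Mps1sKO libraries lay above both control libraries, and for 0 they lay below. Over all tested loci these shares were 20.3% and 21.1%.

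**Figure D2:**
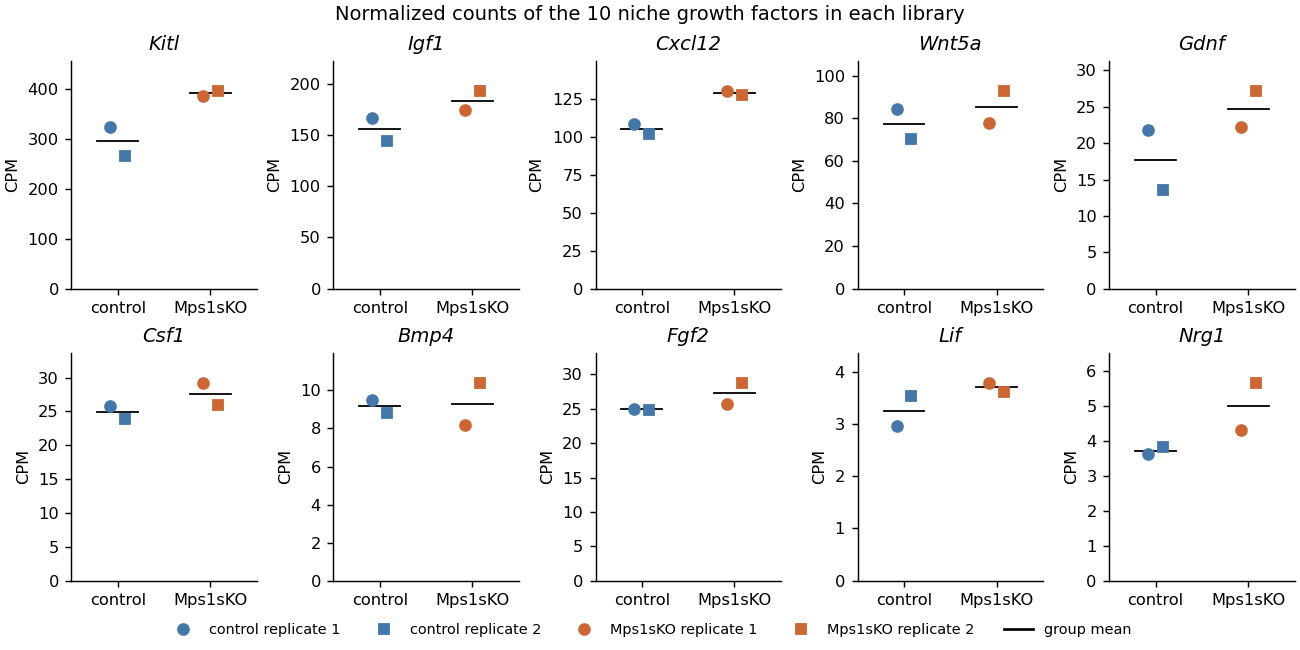
Normalized counts (CPM) of each ligand by library. Points are libraries, the black line is the group mean of 2, and every axis starts at 0. The genotypes overlap for *Wnt5a* and *Bmp4*, and for the other 8 genes both Mps1sKO libraries lie above both control libraries.

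*Kitl* (ENSMUSG00000019966, chromosome 10 from 100015630 to 100100416, plus strand) measured 324 and 265 CPM in controls, and 386 and 396 in Mps1sKO testes. The Mps1sKO libraries were close to each other and above both control libraries, which differed from each other by 0.29 on the log2 scale. The means were 295 ± 41.3 CPM in control and 391 ± 7.16 in Mps1sKO testes (SD, n = 2 each), a 1.33-fold difference with a 95% confidence interval of 1.11 to 1.59. The log2 fold change was 0.41 (standard error 0.11, unadjusted p = 0.00681, adjusted p = 0.494 from edgeR). DESeq2 gave an adjusted p of 0.153, and edgeR gave 0.00773 when no filter on low counts was used. Without that filter the log2 fold change was still 0.41, and 390 loci over the whole table passed an adjusted p of 0.05, against 6 with it. Without control replicate 2 the log2 fold change was 0.27 and *Kitl* no longer passed the relaxed cut-offs of 1.2-fold and 0.05. *Kitl* has 4 protein-coding transcripts in GENCODE M21, and counts per gene cannot separate the membrane-bound from the soluble form of the ligand.

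*Cxcl12* (ENSMUSG00000061353, chromosome 6 from 117168535 to 117181367, plus strand) encodes the chemokine that Sertoli cells release and CXCR4 on germ cells binds. It had 108 and 102 CPM in control and 130 and 128 in Mps1sKO testes. The control libraries differed by 0.085 on the log2 scale and the Mps1sKO libraries by less, and the genotypes did not overlap. The log2 fold change was 0.29 (95% confidence interval 0.09 to 0.50, unadjusted p = 0.00996, adjusted p = 0.494 from edgeR). Leaving out single libraries gave 0.25 to 0.34, and like *Kitl* it did not pass the relaxed cut-offs without control replicate 2.

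*Gdnf* (ENSMUSG00000022144, chromosome 15 from 7810846 to 7837575, plus strand) was counted 589 and 391 times in controls, and 515 and 729 times in Mps1sKO libraries, or 21.9, 13.6, 22.2 and 27.2 CPM. Control replicate 2 stood apart, and control replicate 1 lay just below Mps1sKO replicate 1. The difference between the control libraries, 0.69 on the log2 scale, exceeded the log2 fold change of 0.48 between the genotypes (95% confidence interval −0.025 to 0.99, adjusted p = 0.551 from edgeR). The size of this value depended on which library was left out. Without control replicate 2 the log2 fold change was 0.18, and without control replicate 1 it was 0.87. Without Mps1sKO replicate 1 it was 0.62, and without Mps1sKO replicate 2 it was 0.33. In such fits the lone library of a genotype is assumed to vary as the libraries of the other genotype do.

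Promoter sequences were read for these 3 ligands, which passed the relaxed cut-offs with DESeq2, to show what letters lie before their start sites. RefSeq windows on GRCm38.p6 matched 8 of the 10 ligands with 9 windows, and *Wnt5a* and *Nrg1* were not matched. The 250 bases before each start were searched on both strands for 4 motifs. These were the TATA box, spelled TATAAA, and the GC box, spelled GGGCGG. The others were the half-site of the cyclic AMP response element, which CREB binds, spelled TGACG, and the core that GATA factors read, spelled GATAA. Capitals mark the matches. Of *Kitl*, 30 bases around its TATA box are printed (chr10:100015786-100015815), because the GENCODE gene begins upstream of the RefSeq start. For *Gdnf* (chr15:7809798-7810047) the RefSeq start lies upstream of the GENCODE gene, so the bases between both starts lie outside the gene as the deposited table has it. For *Cxcl12* (chr6:117168285-117168534) both annotations share the start. All 3 stretches are on the plus strand.
Kitl: gagggagctgTATAAAaagcgctggcggcg
Gdnf: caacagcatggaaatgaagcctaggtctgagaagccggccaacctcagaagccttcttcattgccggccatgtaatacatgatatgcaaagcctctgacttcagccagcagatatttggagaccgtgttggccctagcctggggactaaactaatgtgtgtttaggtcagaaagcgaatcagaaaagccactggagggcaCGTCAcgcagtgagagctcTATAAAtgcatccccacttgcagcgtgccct
Cxcl12: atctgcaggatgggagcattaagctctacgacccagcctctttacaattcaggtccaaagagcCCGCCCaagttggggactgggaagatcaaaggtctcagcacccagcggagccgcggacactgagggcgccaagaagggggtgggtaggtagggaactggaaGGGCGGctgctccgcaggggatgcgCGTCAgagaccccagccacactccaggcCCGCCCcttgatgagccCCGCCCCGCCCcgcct

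*Kitl* and *Gdnf* each had a TATA box, from 25 to 20 and from 31 to 26 bases before the start, and TATAAA was present in 2 of the 9 ligand windows and in 12.4% of 32851 windows in the table. *Gdnf* had a half-site 50 to 46 bases before the start and *Cxcl12* one at 61 to 57, both on the opposite strand, and TGACG was in 3 of the 9 windows and 17.8% of all. *Cxcl12* had 5 GC boxes, a pair of which overlap. *Kitl* had 3, from 143 to 138, 45 to 40 and 41 to 36 bases before the start, all upstream of the printed bases. GGGCGG was in 5 of the 9 windows and 32.7% of all. GATAA was in 1 of the 9 windows, the second start of *Gdnf*, and in 22.6% of all. These matches describe letters and no binding was measured.

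Of the other factors that favour self-renewal or survival, *Igf1* (ENSMUSG00000020053, chromosome 10 from 87858265 to 87937042, plus strand), a growth factor that Leydig cells and other somatic cells make, had 167 and 144 CPM in control and 174 and 193 in Mps1sKO testes. The genotypes did not overlap, with a gap between the nearest libraries smaller than the gap within each genotype. Its log2 fold change was 0.24 (95% confidence interval −0.0075 to 0.49, adjusted p = 0.549 from edgeR), and without control replicate 2 it was 0.14. *Wnt5a* (ENSMUSG00000021994, chromosome 14 from 28504750 to 28527448, plus strand), a ligand of non-canonical WNT signalling, had 84.2 and 70.1 CPM in control and 77.9 and 92.9 in Mps1sKO testes, so the groups overlapped. Its log2 fold change was 0.15 (95% confidence interval −0.15 to 0.44, adjusted p = 0.739 from edgeR). It was 0.01 without Mps1sKO replicate 2, 0.02 without control replicate 2, 0.27 without Mps1sKO replicate 1 and 0.28 without control replicate 1. *Wnt5a* shares 358 exonic bases, 4.58% of its exon sequence, with the antisense gene *Gm2670*, which had 12 to 45 counts per library.

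*Fgf2* (ENSMUSG00000037225, chromosome 3 from 37348346 to 37410108, plus strand), which acts with GDNF on stem cells, had 24.99 and 24.83 CPM in control and 25.7 and 28.8 in Mps1sKO testes. The control libraries were nearly equal and the lower Mps1sKO library lay just above them. The log2 fold change was 0.13 (95% confidence interval −0.13 to 0.39, adjusted p = 0.735 from edgeR). The value was 0.04 without Mps1sKO replicate 2 and 0.21 without Mps1sKO replicate 1. *Fgf2* shares 640 exonic bases, 9.44% of its exon sequence, with *Nudt6* on the opposite strand, and reads from these bases cannot be assigned to a strand here. *Nudt6* had 148 to 198 counts per library, against 595 to 772 for *Fgf2*, and a log2 fold change of −0.052.

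*Csf1* (ENSMUSG00000014599, chromosome 3 from 107741048 to 107760469, minus strand), the growth factor of macrophages that also acts on stem cells in culture, had 25.8 and 24.0 CPM in control and 29.3 and 25.9 in Mps1sKO testes. Control replicate 1 and Mps1sKO replicate 2 were almost level. The log2 fold change was 0.15 (95% confidence interval −0.12 to 0.41, adjusted p = 0.702 from edgeR). The value was 0.06 without Mps1sKO replicate 1, 0.09 without control replicate 2 and 0.23 without Mps1sKO replicate 2. *Lif* (ENSMUSG00000034394, chromosome 11 from 4257557 to 4272514, plus strand), a cytokine of the interleukin-6 family, had 80, 102, 88 and 97 counts in control replicates 1 and 2 and Mps1sKO replicates 1 and 2. In CPM these are 2.97, 3.54, 3.80 and 3.62, with a log2 fold change of 0.19 (95% confidence interval −0.28 to 0.65, adjusted p = 0.791 from edgeR). The interval holds differences of either sign, and the value was 0.07 without control replicate 1 and 0.32 without control replicate 2.

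Among the ligands of differentiation besides *Kitl*, *Bmp4* (ENSMUSG00000021835, chromosome 14 from 46383520 to 46390669, minus strand) had 9.51 and 8.84 CPM in control and 8.20 and 10.4 in Mps1sKO testes. The Mps1sKO libraries lay on either side of the controls. Its log2 fold change of 0.02 (95% confidence interval −0.37 to 0.41, adjusted p = 0.98 from edgeR) turned to −0.03 without control replicate 2 and to −0.16 without Mps1sKO replicate 2. *Nrg1* (ENSMUSG00000062991, chromosome 8 from 31814551 to 32884029, minus strand), a ligand of ERBB receptors, had the fewest reads per length, with 98 and 110 counts in controls, and 100 and 152 in Mps1sKO testes. In CPM the values were 3.64 and 3.81 in control and 4.32 and 5.67 in Mps1sKO testes, with Mps1sKO replicate 2 well above the other 3 libraries. The log2 fold change was 0.43 (95% confidence interval −0.05 to 0.90, adjusted p = 0.573 from edgeR), and 0.21 without Mps1sKO replicate 2. *Nrg1* shares 482 exonic bases, 4.66% of its exon sequence, with the antisense lincRNA *Gm26578*, which had 7 to 16 counts per library.

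**Figure D3:**
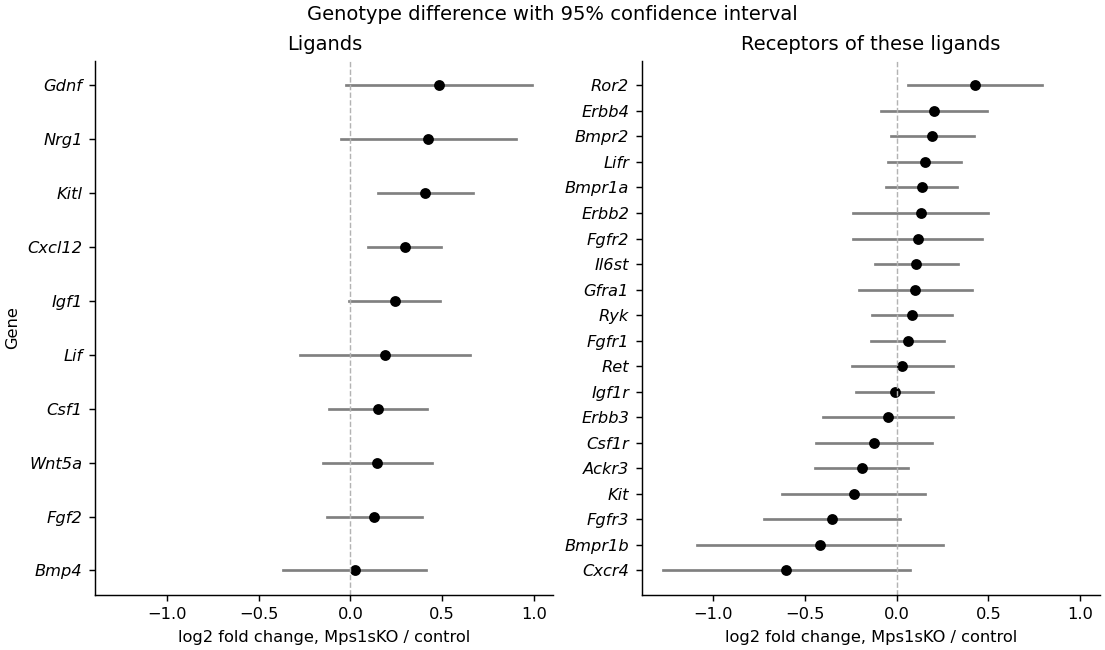
Log2 fold change (Mps1sKO relative to control, points) with its 95% confidence interval (lines) for the 10 ligands, left, and their 20 receptors, right, each sorted by value. Every ligand lies above 0, and the intervals of *Kitl* and *Cxcl12* do not reach 0. Receptors lie on both sides, from −0.60 for *Cxcr4* to 0.43 for *Ror2*.

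The receptors lay on both sides of 0. Of 20 receptors and co-receptors, all tested, 12 had a log2 fold change above 0 and 8 below, with a median of 0.07. None passed an adjusted p of 0.05 with edgeR, DESeq2 or limma-voom. With edgeR 1 had an unadjusted p below 0.05, against 9.3% of tested loci. Both Mps1sKO libraries lay above both controls for 6 and below for 2, where 20.3% and 21.1% of all tested loci did. *Ror2*, a WNT5A receptor, was the receptor higher at the relaxed cut-offs, as were 3.09% of tested loci. It had 9.91 and 8.84 CPM in control and 11.4 and 13.8 in Mps1sKO testes (log2 fold change 0.43, adjusted p = 0.512 from edgeR). *Ryk*, another WNT5A receptor, had a log2 fold change of 0.08. *Kit*, which differentiating spermatogonia carry, had 102 and 128 CPM in control and 114 and 82.3 in Mps1sKO testes, groups that overlapped, with a log2 fold change of −0.24 (edgeR adjusted p = 0.677). *Cxcr4* had 6.98 and 12.6 CPM in control and 7.51 and 5.41 in Mps1sKO testes, with control replicate 2 far above the others (log2 fold change −0.60, adjusted p = 0.573 from edgeR). *Fgfr3* had a log2 fold change of −0.35 with both Mps1sKO libraries below both controls, as did *Ackr3*, the scavenger receptor of CXCL12, with −0.19.

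The GDNF receptors *Gfra1* and *Ret*, which mark undifferentiated spermatogonia, had log2 fold changes of 0.10 (95% confidence interval −0.21 to 0.41) and 0.03 (−0.24 to 0.31), and their groups overlapped. Among receptors for BMPs, *Bmpr1a* and *Bmpr2* had 0.14 and 0.19, with both Mps1sKO libraries above both controls, and *Bmpr1b*, with 2.16 to 4.33 CPM, had −0.42. *Fgfr1* and *Fgfr2* had 0.06 and 0.11. The NRG1 receptors *Erbb2*, *Erbb3* and *Erbb4* had 0.13, −0.05 and 0.20. *Igf1r* was nearly level at −0.01 (−0.22 to 0.20), the LIF receptor subunits *Lifr* and *Il6st* had 0.15 and 0.11, and *Csf1r*, which is mostly a macrophage gene, had −0.13.

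Ligand and receptor values were set against each other within each library, as ratios of normalized counts and with no test. The ratio of *Kitl* to *Kit* was 3.16 and 2.07 in control and 3.39 and 4.81 in Mps1sKO libraries. That of *Cxcl12* to *Cxcr4* was 15.5 and 8.12 in control and 17.3 and 23.6 in Mps1sKO libraries. For both pairs the Mps1sKO libraries lay above the controls, with control replicate 2 lowest and Mps1sKO replicate 2 highest. The ratio of *Gdnf* to *Gfra1* was 0.936 in control replicate 1 and in Mps1sKO replicate 1, 0.708 in control replicate 2 and 1.24 in Mps1sKO replicate 2. Against *Ret*, the other GDNF receptor, *Gdnf* had ratios of 0.474 and 0.359 in control and 0.531 and 0.622 in Mps1sKO libraries, which did not overlap. The ratio of *Csf1* to *Csf1r* was 1.07 and 0.924 in control and 1.14 and 1.27 in Mps1sKO libraries. That of *Igf1* to *Igf1r* was 0.953 and 0.899 in control and 1.03 and 1.19 in Mps1sKO libraries. The 7 pairs were chosen by hand, and *Gdnf* enters with both *Gfra1* and *Ret*. No ratio was computed for *Wnt5a*, *Fgf2*, *Bmp4* or *Nrg1*. Gene pairs outside the ligands and their receptors were not computed either, so these ratios have no background share to be read against. *Ror2* had a larger log2 fold change than its ligand *Wnt5a*, 0.43 against 0.15. *Lif* to *Lifr*, at 0.0314 to 0.0386, overlapped between the genotypes.

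Genes that GDNF is known to induce in spermatogonia also lay on both sides of 0. All 7 of the list were tested, 5 with a log2 fold change above 0 and 2 below, with a median of 0.22, and 0 had an unadjusted p below 0.05 with edgeR or passed an adjusted p of 0.05 with edgeR, DESeq2 or limma-voom. The median was 0.02 without Mps1sKO replicate 2 and 0.09 without control replicate 2. *Etv5* had 40.7 and 33.9 CPM in control and 41.0 and 45.9 in Mps1sKO testes, with replicate 1 of each genotype almost level. It was the 1 gene of the 7 with both Mps1sKO libraries above both controls, as were 20.3% of tested loci. *Bcl6b* had a log2 fold change of 0.11 and *Pou3f1* of −0.10, and both overlapped.

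Of 16 extracellular modulators, 14 were tested, with a median log2 fold change of 0.01, 8 above 0 and 6 below. *Igfbp7*, *Igfbp4* and *Igfbp6*, the most abundant, which bind insulin-like growth factors, had 0.02, 0.15 and 0.04. With edgeR 2 of the 14 had an unadjusted p below 0.05, against 9.3% of tested loci. *Igfbp2*, named here after its values were seen, was among them, with a log2 fold change of −0.26 (edgeR adjusted p = 0.512). Both Mps1sKO libraries lay above both controls for 3 modulators and below for 1, against 20.3% and 21.1% of tested loci. *Igfbp1* and *Grem1*, with at most 5 counts in a library, were not tested. Of 17 other ligands that reach spermatogonia or their niche, 13 were tested, 6 above 0 and 7 below, with a median of −0.0031. *Inhba*, which encodes the subunit of activin A, had 40.3 and 30.8 CPM in control and 42.2 and 50.4 in Mps1sKO testes and was higher at the relaxed cut-offs (log2 fold change 0.38, adjusted p = 0.522 from edgeR). *Wnt6* had 0.34, with control replicate 1 and Mps1sKO replicate 1 almost level, and *Vegfa* had 0.16. *Nrg3*, *Cntf*, *Osm* and *Il6* were not tested, at 0 to 13 counts in a library.

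Several marker lists differed between the genotypes along with the ligands. The summed level of the ligands was 772 and 660 CPM in control and 861 and 911 in Mps1sKO libraries. Sertoli cell markers summed to 5559 and 5890 CPM in control and 7351 and 6592 in Mps1sKO testes, and of 9 tested all had a log2 fold change above 0, with a median of 0.26 (0.45 without control replicate 1), 4 of them without overlap, against 20.3% of tested loci. *Gata4*, *Dhh* and *Ctsl* were higher at the relaxed cut-offs, as were 3.09% of tested loci, and of the most abundant markers *Clu* had a log2 fold change of 0.25, *Ctsl* of 0.39 and *Cldn11* of 0.08. The other Sertoli marker on the list, *Rhox5*, had a single count in 1 control library and 0 in the others. Markers of germ cells summed to 870 and 1043 CPM in control and 793 and 616 in Mps1sKO testes, with each of the 5 lower at the relaxed cut-offs (*Dazl*, *Ddx4*, *Mael*, *Tex101* and *Dppa4*) and a median log2 fold change of −0.44, where 4.95% of tested loci were lower. Those of differentiating spermatogonia summed to 299.6 and 349 CPM in control and 224 and 205 in Mps1sKO testes, with 5 of 5 lower at the relaxed cut-offs. Those of undifferentiated spermatogonia summed to 361 and 335 CPM in control and 304 and 260 in Mps1sKO testes, with 4 of 5 lower. *Gfra1* and *Ret*, which also mark undifferentiated spermatogonia but are not on this list, had log2 fold changes of 0.10 and 0.03. *Kit*, which is not on the list of differentiating spermatogonia, had −0.24, and these receptors overlapped between the genotypes. Of the 7 GDNF-responsive genes, 5 lay above 0 and 2 below. By edgeR 0 genes of the marker lists passed an adjusted p of 0.05, and by DESeq2 *Mael*, *Tex101*, *Stra8* and *Prss50* did.

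The order of the libraries by summed ligands, from control replicate 2 through control replicate 1 and Mps1sKO replicate 1 to Mps1sKO replicate 2, was the reverse of their order by summed germ cell markers. The sum for differentiating spermatogonia had this reversed order too, and that for undifferentiated spermatogonia did not. Sertoli markers followed the order of the ligands by their geometric mean (248, 288, 320 and 349 CPM), but not by their sum. What links these orders was not tested. *Kitl* was the largest part of the ligand sum, with 324 and 265 CPM in control and 386 and 396 in Mps1sKO testes. *Dazl* was the largest part of the germ cell sum, with 466 and 583 against 463 and 333. *Gdnf*, *Igf1* and *Fgf2* followed the same order as *Kitl*, and the other ligands did not. Within the control libraries, 8 of the 10 ligands were higher in replicate 1, against 50.5% of tested loci, and 7 were higher in Mps1sKO replicate 2 than in replicate 1, against 49.8%. Leydig cell markers summed to 721 and 724 CPM in control and 778 and 667 in Mps1sKO testes, peritubular myoid markers to 947 and 981 against 948 and 853, and macrophage markers to 101 and 102 against 109 and 96.4. These 3 sums overlapped between the genotypes. Their median log2 fold changes were 0.18 for Leydig (0.03 without Mps1sKO replicate 1), −0.12 for peritubular myoid and −0.02 for macrophage markers. Of 6 Leydig markers, 4 had a log2 fold change above 0 and 2 below. Both Mps1sKO libraries lay above both controls for 2 Leydig markers and below for 0, against 20.3% and 21.1% of tested loci. Endothelial markers, at 125 and 123 against 137 and 128, did not overlap, and 0 genes of the 4 lists passed the relaxed cut-offs. No marker list other than that of Sertoli cells held a defining marker at 0 in a library. The part of these cell types in the ligand values was not tested.

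**Figure D4:**
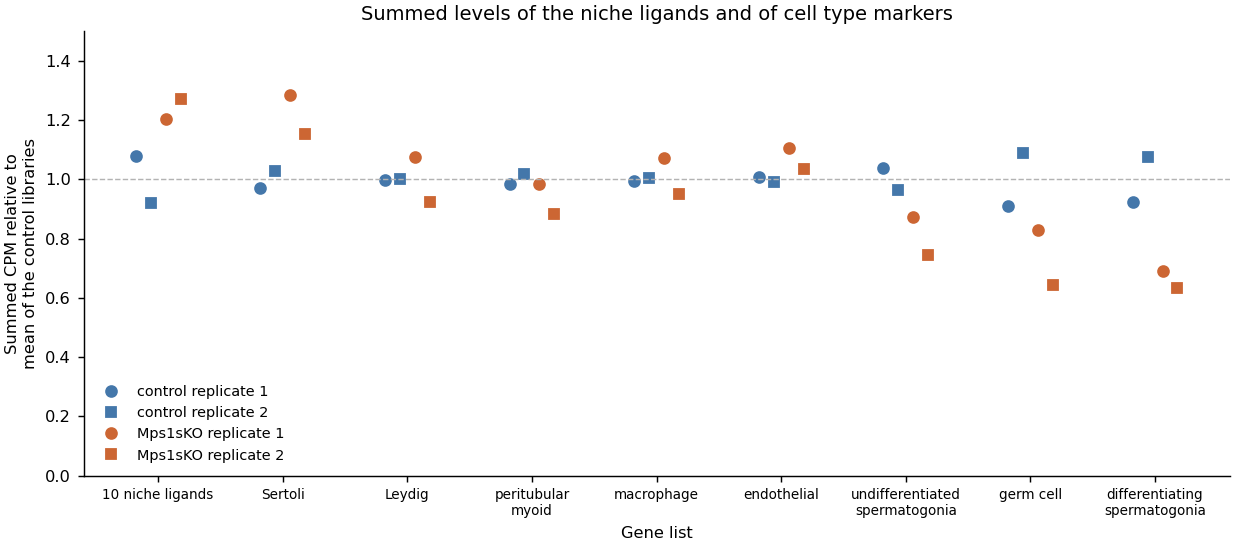
Summed CPM of the 10 ligands and of the marker lists in each library, divided by the mean of the control libraries (dashed line at 1). Ligands and Sertoli markers are higher in both Mps1sKO libraries than in both controls, the 3 germ line lists are lower, and Leydig, peritubular myoid and macrophage markers overlap.

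The ligands were also set against the Sertoli cell markers of the same library. All ligands of a library are divided by the same number, so their log2 ratios fall together. A split around 0 then follows from the spread of their fold changes, and the part of Sertoli cells in it was not tested. Relative to the summed markers, which were 0.28 higher on the log2 scale in Mps1sKO testes, 6 ligands were lower and 4 higher, with a median log2 ratio of −0.065. In 9 of 10 the genotypes overlapped, and *Csf1* was lower without overlap, where 58.9% of tested loci were lower and 1.76% higher without overlap. *Kitl* had 5.83 and 4.51 counts per 100 counts of the markers in control and 5.25 and 6.00 in Mps1sKO testes. *Clu* alone made up 50.4% to 60.9% of that sum. With the geometric mean of the 9 tested markers in place of the sum, chosen after the data were seen, *Kitl* was 1.12 and 1.07 times the markers in control and 1.21 and 1.13 times in Mps1sKO testes, a log2 ratio of 0.09. It was the ligand above both controls on this scale, where 1.66% of tested loci were. *Igf1* had 0.579 and 0.58 in control and 0.544 and 0.552 in Mps1sKO testes, and it was lower without overlap, as were *Wnt5a*, *Fgf2* and *Bmp4* and 63.9% of tested loci. *Cxcl12*, *Gdnf*, *Csf1*, *Nrg1* and *Lif* overlapped. The median over the ligands was −0.11.

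**Figure D5:**
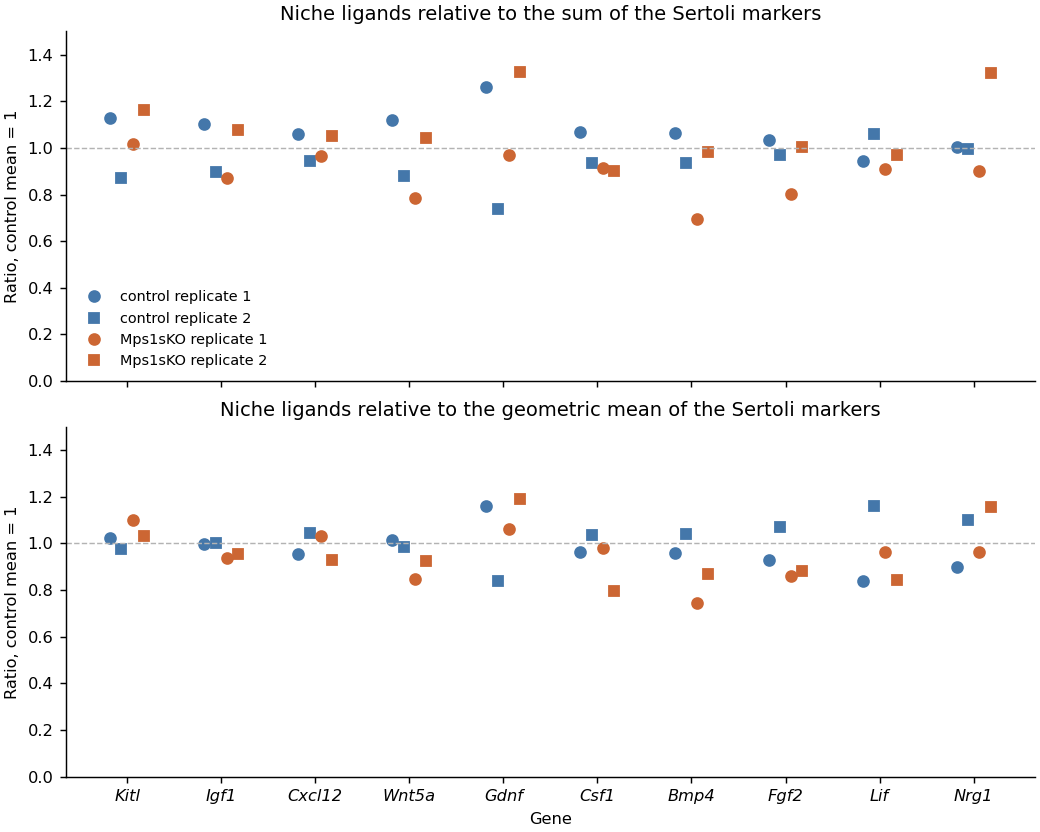
Each ligand divided by the sum (top) or by the geometric mean (bottom) of the Sertoli markers of the same library, with the mean of the control libraries set to 1 (dashed line). In the lower panel *Kitl* is slightly higher in both Mps1sKO libraries, and *Igf1*, *Wnt5a*, *Bmp4* and *Fgf2* are lower in both.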

How the data were processed

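RNA was taken from whole P10 testes, 2 libraries per genotype, grouped by the sample titles. The authors deposited raw counts per gene for each library, with FPKM values that divide by gene length and a scaled library size. The submitters' processing notes name mm10, HISAT2 2.0.5, featureCounts and DESeq2 1.16.1. Strand setting and annotation version are not given in the sources used here. Of 55536 annotated identifiers, 55450 had the coordinates of GENCODE M21 (GRCm38), all 10 ligands among them.

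The deposited counts entered edgeR 4.0.16 under R 4.3.3 (filterByExpr, TMM, two-sided quasi-likelihood F test, Benjamini-Hochberg adjustment over 20561 loci). Standard errors and 95% confidence intervals were derived from the test statistic. With 2 libraries against 2, an exact permutation test cannot reach 0.05, so p-values come from fits across all genes. Alternatives were DESeq2 1.42.0, limma-voom (limma 3.58.1), other scalings and filters, a replicate block and each library left out. Scripts were tested on simulated data.

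Libraries of 1 genotype differed beyond counting error (chi-square per degree of freedom 8.49 in control and 11.6 in Mps1sKO). The ligands and the gene lists were chosen with earlier results of these data known. Named genes are the 10 ligands, their 20 receptors and, of each other list, the 3 with the highest mean CPM and those past the relaxed cut-offs. The result of 1 gene that this rule names is not reported here. Marker lists are given by sums and counts. No p-value was adjusted over a list.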

Additional observations from a re-analysis of the deposited data

How the results depend on the processing

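Of 110 alternative log2 fold changes of the 10 ligands, 106 kept their direction and their side of an adjusted p of 0.05. *Kitl* passed it without the filter on low counts and *Gdnf* without control replicate 1, each then the single ligand called, and *Bmp4* reversed to −0.03 without control replicate 2 and to −0.16 without Mps1sKO replicate 2. The cause was not tested. With each library left out in turn, 0 to 1 ligands passed the adjusted p and 0 to 5 were higher at the relaxed cut-offs, namely 0 when control replicate 2 was absent, 4 when control replicate 1 was, and 5 when Mps1sKO replicate 1 was. *Bmp4* then lay between −0.16 and 0.18. The median log2 fold change of the ligands lay between 0.16 and 0.31, and under the other alternatives between 0.19 and 0.22. Scaling by library size moved the median of all loci by −0.021. The list medians lay between −0.050 and 0.14 for receptors, −0.13 and 0.094 for macrophage, −0.0060 and 0.15 for endothelial, −0.59 and −0.35 for germ cell and −0.50 and −0.25 for undifferentiated spermatogonia markers with a library left out.

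Over the whole table, 6 loci passed an adjusted p of 0.05, against 37 with DESeq2, 390 without the filter, 3 with at least 10 counts in every library, 3 with limma-voom and 17 to 199 with a library left out. At the relaxed cut-offs 1048 loci were higher without the filter and 317 to 1178 with a library left out, and 582 were lower with DESeq2 and 486 to 1469 with a library left out. The titles number the libraries 1 and 2 in each genotype, and nothing says that a number marks a shared litter or day. The deviations of same-numbered libraries correlated at −0.19 across genes, and at −0.49 across the genes with a mean level above the median. With the replicate block, 2 loci passed the adjusted p and 353 were higher at the relaxed cut-offs, 2 of them ligands.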
